A study of Mus musculus with 4 samples.

Results

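The genes described are those of the proteasome and its inducible form in mouse thymocytes: every protein-coding gene of GENCODE M21 whose symbol is Psm followed by a letter from a to g and a digit. The rule gave 50 genes among the 35275 listed in the count table, and all 50 were in the table. Thymocytes of untreated C57BL/6 mice, 6 to 8 weeks old, were sorted by surface markers, and their RNA was sequenced. The 4 groups were Uba3ΔT mice, given the genotype Uba3-/- in the labels and called KO here, in group 3 (TCRβhi CD69hi) and group 2 (TCRβint CD69hi), and Uba3F/F mice, labelled wild type and called WT, in the same 2 sorted groups. Each group held 1 library. UBA3 is the catalytic part of the NEDD8-activating enzyme, and NEDD8 is a small relative of ubiquitin whose attachment turns on the cullin ligases that mark proteins for the proteasome. The Cre line behind the deletion and the number of animals behind each library are not given in the sources used here.

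The proteasome is the protease that breaks down proteins tagged with ubiquitin. Its core is a barrel of 2 outer rings of alpha subunits and 2 inner rings of beta subunits, of which Psmb5, Psmb6 and Psmb7 carry the catalytic sites. A cap of ATPases (Psmc genes) and non-ATPases (Psmd genes) binds ubiquitin, unfolds the substrate and feeds it into the core. Cells of the immune system and cells exposed to interferon replace the 3 catalytic subunits with Psmb8, Psmb9 and Psmb10, which makes the immunoproteasome and changes the peptides offered to MHC class I. In the thymus the cortical epithelium carries a further form with Psmb11, the thymoproteasome.

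By role, the 50 genes were 7 alpha subunits, 7 constitutive beta subunits, 3 immunoproteasome subunits, 6 cap ATPases, 11 cap non-ATPases, 3 chaperones of cap assembly (Psmd5, Psmd9 and Psmd10), 4 chaperones of core assembly (Psmg1 to Psmg4) and 5 activators or inhibitors of the core (Psme1 to Psme4 and Psmf1). Psma8, an alpha subunit of the male germ line, and Psmb11 stood alone. Psmc3ip, a cofactor of meiotic recombination, and Psme2b, a near copy of Psme2, were taken by their symbol only. CPM is a count scaled to the size of its library, and a gene that reached 2 CPM in any of the 4 counted as measured. Of the 50 genes 49 were measured, all but Psmb11, and 47 reached 10 CPM in at least 1 library, all but Psma8, Psme2b and Psmb11.

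The libraries held 8964120 counts in KO group 2, 10299863 in WT group 2, 9689339 in KO group 3 and 8043077 in WT group 3. Genes with at least 1 count numbered 23925 in KO group 2 and 23325 in WT group 3, against 20440 in WT group 2 and 20521 in KO group 3, a split that crosses both factors. Uba3 itself ran against the genotype labels. It had 89.9 CPM in KO group 3 and 43.7 CPM in WT group 3, and 73.3 CPM in KO group 2 and 43.2 CPM in WT group 2. In the fit over all 4 libraries Uba3 was 0.90 higher on the log2 scale in the libraries labelled KO (SE 0.17, adjusted p = 2.65e-05, edgeR's quasi-likelihood test), so every direction below is that of the library labelled KO over the library labelled WT. In the labels' field for the cell type, the WT pair is entered as group 2 and the KO pair as group 3, and the titles, which cross genotype with sorted group, were followed in its place. Ccr7, a homing receptor of maturing thymocytes, had 599 CPM in KO group 3 against 160 CPM in KO group 2, and 592 CPM in WT group 3 against 195 CPM in WT group 2. All 11 thymocyte markers, such as Cd3e and Lck, were measured, and none was at 0. They summed to between 15695 and 18104 CPM. Summed markers of other cells were lower. Erythroid markers had 395 CPM in KO group 3 and 402 CPM in WT group 3, and 538 CPM in KO group 2 and 361 CPM in WT group 2. Dendritic cell markers had 179 CPM in KO group 3 and 145 CPM in WT group 3, and 197 CPM in KO group 2 and 177 CPM in WT group 2. Macrophage markers had 104 CPM in KO group 3 and 67.8 CPM in WT group 3, and 90.3 CPM in KO group 2 and 56.7 CPM in WT group 2.

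The 250 bases upstream of the RefSeq start (GRCm38.p6) are shown for 4 genes of the catalytic sites, whose transcripts are set side by side below as inducible and constitutive pairs. They are Psmb8 and the gene it replaces, Psmb5, and Psmb9 and the gene it replaces, Psmb6. Capitals mark the motifs found on either strand: TTCNNNGAA, the core of sites for STAT factors, in Psmb8; GGGCGG, the GC box, in Psmb9 and, on the other strand, in Psmb6; CCAAT, on the other strand, in Psmb9; and TGACNNNGC, the antioxidant response element that NRF1 and NRF2 also bind, in Psmb5 and Psmb6. The windows lie at chr17:34197945-34198194 on the plus strand for Psmb8, chr14:54617996-54618245 on the minus strand for Psmb5, chr17:34187331-34187580 on the minus strand for Psmb9 and chr11:70525107-70525356 on the plus strand for Psmb6. The windows of Psmb8 and Psmb9 lie inside the GENCODE spans of these genes, which begin upstream of the RefSeq starts.
Psmb8: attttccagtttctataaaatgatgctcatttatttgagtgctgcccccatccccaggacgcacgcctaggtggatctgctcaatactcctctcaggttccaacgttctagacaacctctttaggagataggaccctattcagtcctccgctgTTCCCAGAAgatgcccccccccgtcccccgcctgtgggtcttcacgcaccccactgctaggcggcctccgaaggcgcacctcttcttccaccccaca
Psmb5: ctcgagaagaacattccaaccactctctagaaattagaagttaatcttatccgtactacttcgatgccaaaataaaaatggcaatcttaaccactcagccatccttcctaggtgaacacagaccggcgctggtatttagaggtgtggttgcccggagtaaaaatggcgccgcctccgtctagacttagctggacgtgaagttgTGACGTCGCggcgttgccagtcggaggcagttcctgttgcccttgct
Psmb9: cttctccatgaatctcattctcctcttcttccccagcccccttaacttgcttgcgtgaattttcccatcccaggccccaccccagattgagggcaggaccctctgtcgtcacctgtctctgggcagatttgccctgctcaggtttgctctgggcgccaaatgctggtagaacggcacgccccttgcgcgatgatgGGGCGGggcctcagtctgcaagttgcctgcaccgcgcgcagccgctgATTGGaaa
Psmb6: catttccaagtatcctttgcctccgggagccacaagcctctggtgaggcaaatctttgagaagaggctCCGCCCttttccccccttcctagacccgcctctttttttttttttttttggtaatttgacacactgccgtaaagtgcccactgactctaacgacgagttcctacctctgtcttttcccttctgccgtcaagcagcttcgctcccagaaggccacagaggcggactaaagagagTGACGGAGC

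A promoter entry was found for 42 of the 50 genes. The antioxidant response element was in 5 of these 42 (11.9%: Psmb5, Psmb6, Psmc6, Psmd9 and Psmd12), against 11.5% of the 27025 genes with an entry. The STAT core was in 2 (4.76%: Psmb8 and Psmg1), against 8.13% of all genes. The interferon-stimulated response element, searched as 2 copies of GAAA with 2 bases between them, was in 3 (7.14%: Psmb3, Psmd4 and Psmd9), against 3.46%, and in none of the 3 immunoproteasome windows. CCAAT was in 15 (35.7%), against 37.5%, with 5 of the 7 alpha genes among them. The GC box was in 22 (52.4%), against 35.4%. None of the marked motifs overlaps another in the 4 windows shown, and a match describes the letters of a window only.

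Per length, the core was the most abundant class. Levels between genes are given in the authors' RPKM (counts scaled to gene length and library size), a unit of relative transcript level in which fewer cells of a type and less RNA per cell cannot be told apart. The lengths implied for the members run from 514 to 4247 bp and come from gene models that are not given. The order of genes and classes in RPKM depends on these lengths. The median of the 7 alpha genes was 371 RPKM in KO group 3 and 353 RPKM in WT group 3, and 385 RPKM in KO group 2 and 389 RPKM in WT group 2. The 7 constitutive beta genes had medians of 271 RPKM in KO group 3 and 274 RPKM in WT group 3, and of 295 RPKM in KO group 2 and 293 RPKM in WT group 2. The 5 activators and inhibitors had medians between 203 and 237 RPKM over the 4 libraries, and both cap classes between 178 and 201 RPKM. The 3 immunoproteasome genes had medians between 133 and 163 RPKM. Genes of the assembly chaperones were lowest, with medians between 44.5 and 48.4 RPKM for the cap and between 42.1 and 49.3 RPKM for the core.

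Within the classes other than the immunoproteasome, the levels spread far more between genes than between libraries. The 3 immunoproteasome genes lay close together, from 129 to 134 RPKM in WT group 2. Psmb10 alone ran from 134 RPKM in WT group 2 to 180 RPKM in KO group 2. Psma6 was the highest of the alpha genes, with 666 ± 79.4 RPKM (SD over the 4 libraries), and Psma5 the lowest, with 203 ± 23.5 RPKM. Psmb6, the constitutive subunit of caspase-like cleavage, led the beta genes at 426 ± 29.3 RPKM, and Psmb7, the subunit of trypsin-like cleavage, was lowest at 196 ± 31.9 RPKM. Among ATPases, Psmc3 had 453 ± 50.4 RPKM and Psmc2 96.5 ± 5.04 RPKM, with implied lengths of 940 and 2626 bp. Without length the gap was smaller, at 490 CPM for Psmc3 and 256 CPM for Psmc2 in KO group 2. There Psmc6, at 224 CPM, lay below Psmc2. Among non-ATPases, Psmd14, the deubiquitinase of the cap, had 399 ± 23.0 RPKM, and Psmd1, the scaffold that holds ubiquitin receptors, had 111 ± 20.0 RPKM. Psmd6 varied least of the cap genes, with 174 and 178 RPKM in KO and WT group 2 and 177 and 178 RPKM in KO and WT group 3. Of the chaperones, Psmd5 had 91.9 ± 5.27 RPKM and Psmd9 35.9 ± 0.807 RPKM, and Psmg1 had 71.8 ± 4.43 RPKM and Psmg3 12.7 ± 3.06 RPKM.

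The activators had the widest range. Psme1 and Psme2 form the PA28 cap, which opens the core without ATP and is induced by interferon. Psme1 had 565 RPKM in KO group 3 and 534 RPKM in WT group 3, and 604 RPKM in KO group 2 and 488 RPKM in WT group 2. Psme2 had 450 RPKM in KO group 3 and 359 RPKM in WT group 3, and 373 RPKM in KO group 2 and 322 RPKM in WT group 2. Both PA28 genes were higher in the library labelled KO in each sorted group. Psme3, the nuclear relative of PA28, had 223 ± 14.2 RPKM, Psmf1, an inhibitor of the core, 33.1 ± 2.62 RPKM, and Psme4, the activator PA200, 22.6 ± 4.24 RPKM.

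No gene of the proteasome passed the test for genotype. Over both sorted groups, 0 of the 49 measured genes were called higher and 0 lower in the libraries labelled KO (edgeR's quasi-likelihood test, Benjamini-Hochberg adjustment over 12490 genes), where 2.95% of all measured genes were called higher and 1.87% lower. DESeq2 and limma-voom also called 0. At an unadjusted p under 0.05 edgeR had 4 (Psma8, Psmd1, Psmd7 and Psme2), limma-voom 3 and DESeq2 2. The share of all measured genes at that threshold was not worked out, so nothing is read from these counts. Fitted log2 differences of the 47 genes with 10 CPM lay between -0.37 and 0.33, with a median of 0.08 and 35 of 47 above 0, beside a median of 0.01 over the 9101 genes with 10 CPM. The 95% intervals of these 47 differences ran from -0.86 at the lowest to 0.63 at the highest. In counts simulated for the genotype comparison, 200 genes were changed among all those with a mean of at least 10 CPM. Of these, 21.5% were called when changed 1.5-fold and 88% when changed 2-fold. In the data 602 genes were called, and 38 of the 47 proteasome genes reached 100 CPM. Such genes were not simulated apart, so the rate at which a 1.5-fold change in them would be missed is not known. With 1 library per group the error of this test is not the spread between mice. It comes from how far the genotype effect differs between the sorted groups, whether that difference is real or not. It was pooled over genes of like level, with no weight on a gene's own spread, so Psmd6 and Psmb10 had the same standard error, 0.15 log2, though their genotype effects differed between sorted groups by 0.02 and -0.49.

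Per library pair, the differences were small as well. A gene counted as past the fold at 1.5-fold or more with a 95% interval of the ratio that excluded 1, an interval that covers counting error only. Of the 47 genes with 10 CPM, 0 were past it in either sorted group, where 6.44% of all genes with 10 CPM were higher and 6.45% lower in KO than in WT group 2, and 5.67% were higher and 5.10% lower in KO than in WT group 3. In group 2 the median log2 difference of the 47 genes was 0.11, beside -0.02 over all genes with 10 CPM, and 74.5% were above 0, beside 47.0%. In group 3 the median was 0.01, beside 0.03, and 53.2% were above 0, beside 54.0%. The median size of a difference, leaving out its sign, was 0.15 log2 for the 47 genes and 0.22 for all genes in group 2, and 0.11 and 0.21 in group 3. Most proteasome genes are abundant: 38 reached 100 CPM, and there the sizes were 0.16 log2 beside 0.18 for all 2760 such genes in group 2, and 0.11 beside 0.16 in group 3.

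By class, group 2 shows the same sign in most classes. The median log2 difference, KO over WT, was 0.07 for alpha genes, 0.15 for beta genes, 0.23 for immunoproteasome genes, 0.16 for ATPases, 0.16 for non-ATPases and 0.22 for activators. Core assembly chaperones stood at -0.17. In group 3 the same medians were 0.09 for alpha genes, -0.00 for beta genes, -0.02 for immunoproteasome genes, -0.03 for ATPases, 0.03 for non-ATPases, 0.12 for activators and -0.14 for core assembly chaperones. Of the 14 core genes, 12 were above 0 in group 2 and 7 in group 3. Of the 17 cap genes, 14 were above 0 in group 2 and 8 in group 3.

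At a lower threshold of 0.32 log2, also with an interval excluding 1, 5 of the 47 genes were higher in KO than in WT group 2 (Psmb10, Psmc5, Psmd3, Psmd7 and Psme1; 15.6% of all genes with 10 CPM were) and 0 lower (17.8% were). Psmd7, a non-ATPase of the lid, had 201 CPM in KO group 2 and 152 CPM in WT group 2, a ratio of 1.32 (95% interval 1.23 to 1.41), and 205 CPM in KO group 3 and 173 CPM in WT group 3, a ratio of 1.19 (1.11 to 1.27). Psmd3, also of the lid, had 375 CPM in KO group 2 and 289 CPM in WT group 2, a ratio of 1.30 (1.24 to 1.37). In group 3 Psmd3 went the other way, with 347 CPM in KO and 370 CPM in WT.

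In group 3, 4 of the 47 genes were higher in KO than in WT past 0.32 log2 (Psmb3, Psmb8, Psmd1 and Psme2; 16.5% of all genes with 10 CPM were) and 3 lower (Psmc3ip, Psmd13 and Psmg3; 13.8% were). Psmd1 had the largest of these differences, with 200 CPM in KO group 3 and 135 CPM in WT group 3, a ratio of 1.48 (1.37 to 1.59), beside 148 CPM in KO group 2 and 138 CPM in WT group 2. The KO group 3 library alone was high, and the other 3 libraries lay within 135 and 148 CPM. Over both sorted groups Psmd1 did not pass the test (log2 difference 0.33, SE 0.15, adjusted p = 0.276, edgeR). Psmb3, a structural beta subunit, had 312 CPM in KO group 3 and 245 CPM in WT group 3, a ratio of 1.27 (1.20 to 1.35). Psmd13, a lid subunit, had 146 CPM in KO group 3 and 186 CPM in WT group 3, a ratio of 0.786 (0.731 to 0.846). Psmg3, a chaperone of alpha ring assembly, had 11.9 CPM in KO group 3 and 16.8 CPM in WT group 3, and 17.8 CPM in KO group 2 and 21.2 CPM in WT group 2. It was lower in the library labelled KO in both sorted groups, with ratios of 0.706 (0.546 to 0.913) in group 3 and 0.837 (0.678 to 1.03) in group 2, and did not pass the test (log2 difference -0.37, SE 0.25, adjusted p = 0.602, edgeR). Psmc1, an ATPase, had the next lowest ratio in group 2, at 0.872 (0.826 to 0.919), with 269 CPM in KO and 308 CPM in WT.

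For the immunoproteasome, the 3 genes did not move together. Psmb8 (ENSMUSG00000024338, mm10 chromosome 17, 34197721 to 34201454, plus strand) replaces Psmb5. It had 197 CPM in KO group 3 and 157 CPM in WT group 3, a ratio of 1.26 (1.17 to 1.35), and 192 CPM in KO group 2 and 184 CPM in WT group 2, a ratio of 1.05 (0.979 to 1.12). The WT group 3 library was the low one of the 4. Psmb9 (ENSMUSG00000096727, chromosome 17, 34181987 to 34187764, minus strand) replaces Psmb6. It had 169 CPM in KO group 3 and 182 CPM in WT group 3, a ratio of 0.925 (0.861 to 0.993), and 169 CPM in KO group 2 and 144 CPM in WT group 2, a ratio of 1.17 (1.09 to 1.26). The WT libraries were the highest and the lowest of the 4, with both KO libraries between them. Psmb10 (ENSMUSG00000031897, chromosome 8, 105935735 to 105938444, minus strand) replaces Psmb7. It had 201 CPM in KO group 3 and 204 CPM in WT group 3, and 232 CPM in KO group 2 and 167 CPM in WT group 2, a ratio of 1.39 (1.30 to 1.48) in group 2 and of 0.984 (0.921 to 1.05) in group 3. Fitted over both sorted groups, Psmb8 stood at 0.20 (SE 0.15, adjusted p = 0.683), Psmb9 at 0.06 (SE 0.15, adjusted p = 0.954) and Psmb10 at 0.22 (SE 0.15, adjusted p = 0.601) on the log2 scale, KO over WT, in edgeR's test.

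The share of the inducible transcript in the pair of each catalytic site, from RPKM, was below 50% in every library. Shares of the subunits in assembled proteasomes were not measured. For the chymotrypsin-like site, Psmb8 made up 37.5% of Psmb8 plus Psmb5 in KO group 3 (95% interval 36.0% to 39.1%, exact, counting error only) and 32.3% in WT group 3 (30.7% to 34.0%), and 32.7% in KO group 2 (31.3% to 34.2%) and 33.4% in WT group 2 (32.1% to 34.8%). KO group 3 stood above the other 3 libraries, whose intervals overlap. For the caspase-like site, Psmb9 made up 24.8% in KO group 3 (23.7% to 26.0%) and 30.0% in WT group 3 (28.6% to 31.4%), and 25.2% in KO group 2 (24.1% to 26.4%) and 24.2% in WT group 2 (23.1% to 25.3%). Here WT group 3 stood above the other 3. For the trypsin-like site, Psmb10 made up 49.1% in KO group 3 (47.4% to 50.9%) and 46.9% in WT group 3 (45.1% to 48.7%), and 43.2% in KO group 2 (41.6% to 44.7%) and 40.3% in WT group 2 (38.7% to 41.9%).

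Psmb10 was the site at which both genotypes had a higher inducible share in group 3 than in group 2. The ratio of Psmb10 to Psmb7 was 1.27 times as large in KO group 3 as in KO group 2 (1.16 to 1.40) and 1.31 times as large in WT group 3 as in WT group 2 (1.18 to 1.44). Its parts differed: in KO the constitutive Psmb7 had 145 CPM in group 3 and 213 CPM in group 2, and in WT Psmb10 had 204 CPM in group 3 and 167 CPM in group 2. For Psmb8 over Psmb5 the ratio was 1.24 times as large in group 3 as in group 2 in KO (1.13 to 1.35) and 0.951 times in WT (0.864 to 1.05). For Psmb9 over Psmb6 it was 0.979 times in KO (0.898 to 1.07) and 1.34 times in WT (1.23 to 1.47). Summed over the 3 sites, the inducible share was 34.4% in KO group 3 and 35.3% in WT group 3, and 32.6% in KO group 2 and 31.2% in WT group 2, higher in group 3 than in group 2 in both genotypes.

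**Figure D1:**
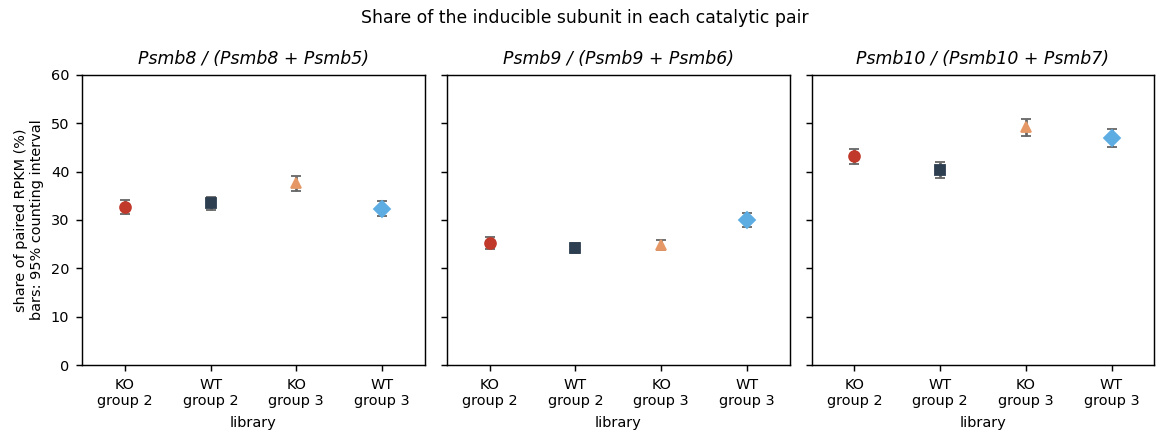
Share of the inducible subunit (percent of the RPKM of the pair) at the 3 catalytic sites in each library, with exact 95% intervals for counting error. At the Psmb10 site both group 3 libraries (49.1% in KO and 46.9% in WT) lie above both group 2 libraries (43.2% in KO and 40.3% in WT).

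Between sorted groups, no gene of the proteasome passed the test either. Over both genotypes, 0 of 49 were called higher and 0 lower in group 3 (edgeR; 2.21% of all measured genes were called higher and 1.14% lower), and 0 by DESeq2 and by limma-voom. At an unadjusted p under 0.05 edgeR had 4 (Psma6, Psmb7, Psmc6 and Psme4, all lower in group 3), limma-voom 4 and DESeq2 0. Here too the share of all measured genes was not worked out. Fitted log2 differences of the 47 genes with 10 CPM lay between -0.46 and 0.22, with 30 of 47 below 0. Their median was -0.07, beside 0.005 over all genes with 10 CPM. At 1.5-fold, 0 of the 47 genes were past the fold in KO, where 5.37% of all genes with 10 CPM were above it and 4.32% below it in group 3, and 0 in WT, with 5.76% above and 4.32% below. In simulated counts for the sorted groups, 21% of genes changed 1.5-fold were called and 82.5% of those changed 2-fold, with the same limits.

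Values of most core genes were below 0 in the difference between sorted groups, though 0 passed the test. All 7 alpha genes had less in group 3 than in group 2 in KO and in WT, and so did 5 of 7 beta genes in KO and 7 of 7 in WT. Psmb3 and Psmb6 lay above 0 in KO, at 0.13 and 0.03 log2. Of all genes with 10 CPM, 54.7% lay above 0 in KO and 46.7% in WT. The median log2 difference of the 14 core genes was -0.16 in KO and -0.11 in WT, beside medians of 0.04 and -0.02 over all genes with 10 CPM. The 17 cap genes had medians of -0.10 in KO and 0.01 in WT, and the activators -0.09 in KO and -0.03 in WT. Psma6 had 468 CPM in KO group 3 and 604 CPM in KO group 2, a ratio of 0.775 (0.745 to 0.807), and 515 CPM in WT group 3 and 583 CPM in WT group 2, a ratio of 0.884 (0.850 to 0.919). Psmb7 had a ratio of 0.681 (0.635 to 0.730) in KO and, from 161 CPM in WT group 3 and 173 CPM in WT group 2, of 0.932 (0.867 to 1.0) in WT. Psmc6, an ATPase, had 182 CPM in KO group 3 and 224 CPM in KO group 2, and 189 CPM in WT group 3 and 233 CPM in WT group 2, with ratios of 0.812 (0.761 to 0.866) in KO and 0.810 (0.760 to 0.864) in WT. The 2 ratios of Psmc6 were nearly equal. Psme4 had 28.5 CPM in KO group 3 and 37.3 CPM in KO group 2, and 26.1 CPM in WT group 3 and 37.8 CPM in WT group 2, so both group 3 libraries lay below both group 2 libraries. Its fitted log2 difference was -0.46 (SE 0.21, adjusted p = 0.321, edgeR), and that of Psmb7 was -0.33 (SE 0.15, adjusted p = 0.342, edgeR).

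Past 0.32 log2, 1 of 47 genes was higher in group 3 in KO (Psmd1; 16.5% of all genes with 10 CPM were) and 9 lower (Psma6, Psmb4, Psmb7, Psmc3, Psmc3ip, Psmd8, Psmd13, Psme4 and Psmg3; 12.5% were). In WT 2 were higher (Psmb9 and Psmd3; 13.7% were) and 2 lower (Psme4 and Psmg3; 15.0% were). Psme4 and Psmg3 were the genes lower in both genotypes. Psmd1 had a ratio of 1.35 (1.26 to 1.45) in KO and of 0.980 (0.905 to 1.06) in WT. Psmd3 had a ratio of 0.925 (0.881 to 0.971) in KO and of 1.28 (1.22 to 1.35) in WT. Psme2 was higher in group 3 in both, with ratios of 1.21 (1.14 to 1.28) in KO and 1.12 (1.05 to 1.20) in WT, and Psmg4, a chaperone with 16.3 CPM in KO group 3 and 13.8 CPM in KO group 2, had 1.18 (0.923 to 1.51) in KO.

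Genes outside the abundant classes gave the only members past 1.5-fold, both under 10 CPM. Psma8 counted as measured through WT group 2 alone, so its ratios that include that library use the value that let it in. Those ratios are not independent support for a difference. Psma8 (ENSMUSG00000036743, chromosome 18, 14706151 to 14762301), the alpha subunit of the germ line that takes the place of Psma7, had 0 counts in KO group 3 and 13 in WT group 3, and 2 in KO group 2 and 31 in WT group 2. In group 2 the ratio, KO over WT, was 0.0767 (0.00889 to 0.301), and in group 3 it was 0 (0 to 0.281), whose upper limit is a level 3.56-fold lower in KO. With 3 counts taken as the floor of the KO group 3 library, KO was at least 5.06-fold lower, a bound that carries no error for the 13 WT counts. Over both sorted groups Psma8 had 2 counts in KO and 44 in WT, a ratio of 0.0462 (0.00542 to 0.177), and did not pass edgeR's test (adjusted p = 0.132). Among measured genes, 8.05% were lower past 1.5-fold in KO than in WT group 2 and 10.6% in group 3. Of the 3 other measured genes within 1 Mb of Psma8, 0 were called for genotype. The transcripts of Psma8 and Psma7 were 78.3% identical over 636 aligned bases, with a longest shared run of 17 bases.

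Psme2b had 38 counts in KO group 3 and 17 in WT group 3, and 14 in KO group 2 and 6 in WT group 2. It was past 1.5-fold higher in KO in group 3, with a ratio of 1.91 (1.05 to 3.62; 6.39% of measured genes were higher), and in group 2, with a ratio of 2.77 (1.0 to 8.81; 11.8% were). It was also higher in group 3 than in group 2, with ratios of 2.52 (1.33 to 5.03) in KO and 3.65 (1.37 to 11.3) in WT, where 5.96% and 10.1% of measured genes were. Psme2b counted as measured through the group 3 libraries alone, so these ratios use the values that let it in and are not independent support. Lower in group 3 past 1.5-fold were 0 of the 49 measured genes in KO, beside 10.7% of all, and 0 in WT, beside 6.04%. The transcripts of Psme2b and Psme2 were 99.4% identical over 794 bases, with a shared run of 341 bases, and Psme2 had 2684 counts in KO group 3 and 1775 in WT group 3, so the counts of Psme2b are uncertain. Psmb11, the thymoproteasome gene of cortical epithelium, had 0 counts in KO group 3 and 1 in WT group 3, and 1 in KO group 2 and 3 in WT group 2. Psmc3ip had 173 counts in KO group 3 and 191 in WT group 3, and 223 in KO group 2 and 303 in WT group 2. In GENCODE it shares 385 of its 1818 exonic bases with Mlx on the other strand. Its implied length was shorter, at 1025 bp, so whether the shared bases were counted is not known. Without a stated strand setting, any reads from them could not be told apart. The same holds for Psmb9 with Tap1 (212 bases), Psmc3 with Slc39a13 (215 bases) and Psmd13 with Sirt3 (342 bases).

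Genes around the proteasome give the setting in which its own genes did not pass. The lists here and below were chosen with earlier results of these data known, so their counts are no test of a list. Of all measured genes, edgeR called 2.95% higher and 1.87% lower in KO, and 2.21% higher and 1.14% lower in group 3. Of 14 further genes of proteasome function analysed, such as Adrm1, a ubiquitin receptor, and Pomp, the maturation factor of the core, 0 passed for genotype and 0 between sorted groups, with a median fitted log2 difference of 0.11, KO over WT. Of 8 genes of the VCP unfoldase, 0 passed in either comparison. NRF1 (Nfe2l1) is the factor that raises proteasome genes when proteasome activity is short, and partners with small MAF proteins. Of 13 genes of this axis 3 rose in the libraries labelled KO and 0 fell: Mafg by 1.04 log2 (SE 0.26, adjusted p = 0.00248), Nfe2l2, which encodes NRF2, by 0.67 (SE 0.16, adjusted p = 0.00145) and Mafk by 0.52 (SE 0.16, adjusted p = 0.0298; edgeR). Nfe2l1 itself stood at 0.29 (SE 0.21, adjusted p = 0.645, edgeR).

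Of 15 genes that supply peptides to MHC class I, 4 rose in KO and 0 fell: Irf1, an activator of the interferon response, by 0.64 log2 (SE 0.15, adjusted p = 0.000827), B2m, the light chain of MHC class I, by 0.47 (SE 0.12, adjusted p = 0.00658), the loading factor Tapbp by 0.46 (SE 0.14, adjusted p = 0.0251) and H2-D1, an MHC class I heavy chain, by 0.42 (SE 0.12, adjusted p = 0.0203; edgeR). Of 12 interferon-stimulated genes 6 rose in KO and 0 fell, with a median of 0.87 log2. Between sorted groups 8 of the 15 MHC class I genes and 9 of the 12 interferon-stimulated genes rose in group 3 and 0 fell, with medians of 0.48 and 0.71 log2. Tap1, the peptide transporter gene beside Psmb9, had 243 CPM in KO group 3 and 187 CPM in KO group 2, and 206 CPM in WT group 3 and 138 CPM in WT group 2, and rose in group 3 by 0.48 log2 (SE 0.15, adjusted p = 0.0429, edgeR). Psmb9 stood at 0.17 log2 in the same comparison (SE 0.15, adjusted p = 0.882, edgeR). The difference between Tap1 and Psmb9 was not tested. The 5 interferon-inducible genes of the proteasome itself (Psmb8, Psmb9, Psmb10, Psme1 and Psme2) had a median of 0.22 log2, KO over WT, with 0 passing. Markers of other cells and of immature thymocytes differed as well. Of 6 genes of immature double-positive thymocytes 4 fell in KO (Rag1, Rag2, Ptcra and Arpp21) and 0 rose, with a median of -0.54 log2. Of macrophage markers 1 of 8 (C1qb) rose in KO, and of measured B cell markers 1 of 5 (Cd74). Of measured neutrophil markers 2 of 4 (Ngp and Ltf) were called higher in KO, and 0 of these 3 lists fell. The neutrophil list was high in KO group 3 alone, at 41.2 CPM in sum, beside 0.981 CPM in WT group 3. Its sum was 1.02 CPM in KO group 2 and 1.33 CPM in WT group 2, so group 2 shows no rise in KO. Ngp and Ltf were measured through KO group 3 alone and were also called higher in group 3. None of the macrophage or B cell markers was at 0 in any library. The 7 B cell markers summed to 256 CPM in KO group 3 and 235 CPM in WT group 3, and to 312 CPM in KO group 2 and 193 CPM in WT group 2. Their part in these values was not tested.

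**Figure D2:**
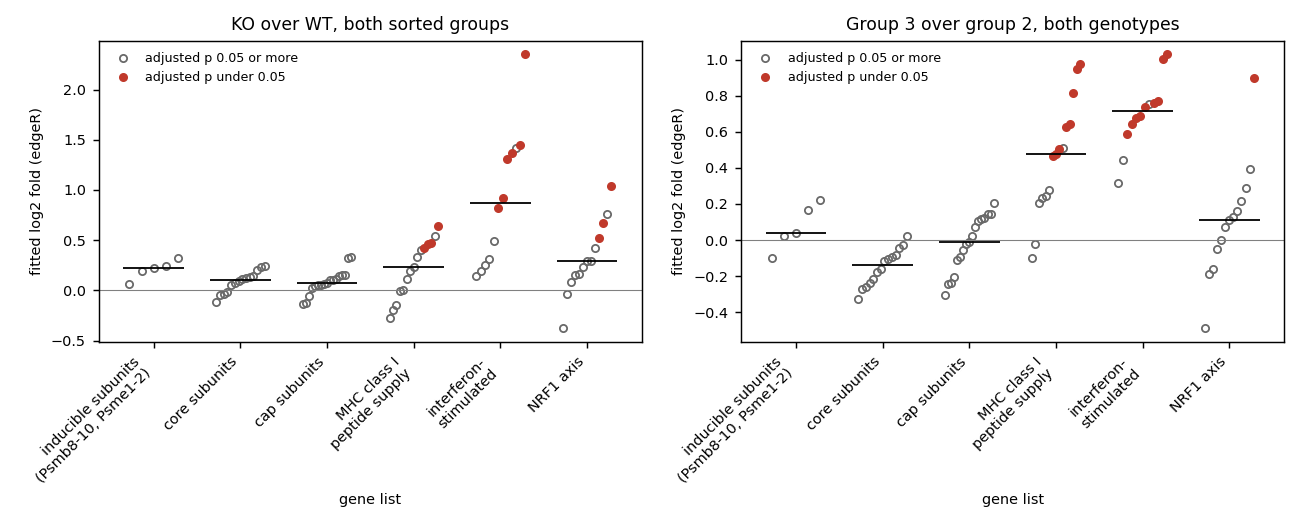
Fitted log2 difference from edgeR over all 4 libraries, KO over WT (left) and group 3 over group 2 (right), for genes of the inducible subunits, the core, the cap, MHC class I supply, the interferon-stimulated list and the NRF1 axis. Filled red points have an adjusted p under 0.05 and lines mark medians. There are 0 red points among proteasome genes in either panel, 4 (left) and 8 (right) in MHC class I supply, 6 and 9 among interferon-stimulated genes and 3 and 1 in the NRF1 axis.

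Most of these calls in the surrounding lists did not hold when each library was left out in turn. Those fits held the tested factor alone and had 1 library on 1 side. With all 4 libraries, a fit of genotype alone called 23 genes over the whole table, against 602 with sorted group in the fit. For sorted group the numbers were 14 and 419. The fits that leave out a library therefore cannot tell the loss of a library from the loss of the second factor. Oas1a, an interferon-induced antiviral enzyme gene, was called in all 4 of these fits, Irf1 in 1 (without WT group 3), and Mafg, Mafk, Nfe2l2, B2m, Tapbp, H2-D1, C1qb and Cd74 in 0. Ptcra was called in 3 of the 4 fits, Rag2 in 1, Rag1 and Arpp21 in 0, and Ngp and Ltf in 1 (without KO group 2). Unlike Oas1a, the other interferon-stimulated genes called for genotype (Rtp4, Usp18, Rsad2, Irf7 and Isg15) were each lost in some of these fits. DESeq2 gave adjusted p values of 0.312 for Mafg, 0.294 for Mafk, 0.0703 for Nfe2l2, 0.0732 for Tapbp, 0.123 for H2-D1, 0.553 for C1qb and 0.350 for Cd74, and kept Irf1 (0.0274) and B2m (0.0243). For genotype, DESeq2 gave an adjusted p of 0.0631 for Ngp and none for Ltf, and limma-voom gave 0.00552 and 0.463. Of the interferon-stimulated genes called, DESeq2 kept all but Isg15 (adjusted p = 0.119). Between sorted groups, every fit that leaves out a library lost Tap1 and the other 7 MHC class I genes. It also lost all the interferon-stimulated genes called in that comparison.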

How the data were processed

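The authors deposited 1 table of raw counts by Ensembl gene, and per library a list of RPKM. The submitters' processing notes name TopHat2 2.0.12 and the build mm10. Which program counted the reads, with which annotation and strand setting, is not given in the sources used here. The deposited RPKM and counts implied a whole gene length within 0.01 bp for 100% of values. Of 35275 gene IDs, 34490 matched GENCODE M21, and the 785 unmatched were kept in the totals. Members and gene lists were chosen with earlier results of these data known.

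Counts were scaled with TMM (edgeR 4.0.16, R 4.3.3). Pairwise log2 differences added 0.5 to each CPM, carried an exact (conditional binomial) 95% interval of the count ratio, and had no p-value. edgeR's quasi-likelihood test fitted sorted group plus genotype to all 4 libraries (threshold 0.05 after Benjamini-Hochberg adjustment; 1 residual degree of freedom; common dispersion 0.0288). Nothing in the labels says which libraries share an animal, so p-values measure only the spread between these libraries, which may be technical. A standard error is the log2 difference over the root of F. Inducible shares used RPKM, with Clopper-Pearson intervals of the counts carried to the share. The floor for 0 counts was 3 counts. On simulated counts the tests were checked for recovery. Genes named were the catalytic pairs, activators and single genes, the 3 highest and 3 lowest differences per pair of libraries, the highest and lowest level per class and the 4 largest differences of the genotype effect; others in the text are members counted past 0.32 log2 or flagged, or were named after their values were seen (Psmd6). Alternatives were DESeq2 1.42.0, limma 3.58.1 (voom), other scalings, filters, folds and pseudocounts, and leaving out each library. Paaf1 was not analysed here, and 2 genes of the surrounding lists are not reported here.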

Additional observations from a re-analysis of the deposited data

Results flagged for a closer look

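In 6 proteasome genes every library pair of one sorted group moved one way and the pair of the other sorted group the opposite way, each with a 95% interval (counting error only) that excluded 1: higher in KO than in WT group 2 and lower in KO than in WT group 3. The difference between the 2 effects, group 3 minus group 2, was -0.47 log2 for Psmd3, -0.45 for Psmb7, -0.38 for Psmd4, -0.34 for Psmb9, -0.25 for Psmc3 and -0.24 for Psmd8. It was not tested, since each group has 1 library. Psmd4, a ubiquitin receptor of the cap, had 354 CPM in KO group 3 and 384 CPM in WT group 3, and 410 CPM in KO group 2 and 341 CPM in WT group 2. Psmd8, a lid subunit, had 413 CPM in KO group 3 and 433 CPM in WT group 3, and 518 CPM in KO group 2 and 459 CPM in WT group 2. Psmc3 had 379 CPM in KO group 3 and 401 CPM in WT group 3, and 490 CPM in KO group 2 and 435 CPM in WT group 2.

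The pattern was found in 6 of the 47 genes with 10 CPM (12.8%) and in 351 of all 9101 (3.86%), and the reverse in 0 and in 568 (6.24%). Higher in KO in both sorted groups were 11 of the 47 genes (23.4%) and 1157 of all (12.7%), and lower in both 1 (2.13%) and 958 (10.5%). These patterns ask for intervals that exclude 1 and set no least fold, and such intervals are narrower at higher counts. Of the 47 genes 38 reached 100 CPM, beside 2760 of the 9101. The shares among genes of that level were not worked out, so the percentages are not matched for level. Within each sorted group the library with more of these 6 transcripts also had more genes with a count: 23925 in KO group 2 and 20440 in WT group 2, and 20521 in KO group 3 and 23325 in WT group 3. The part of this in the pattern was not tested. The largest further differences of the genotype effect were -0.49 log2 for Psmb10 and 0.46 for Psmd1.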

How the results depend on the processing

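No paired analysis was possible because each group holds 1 library, so the replicate number 1 is shared by all. For genotype and for sorted group, 0 proteasome genes were called under every alternative run: DESeq2, limma-voom, DESeq2 size factors, library totals, no filter, a filter at 10 CPM, edgeR's own filter, robust shrinkage, each factor alone, without Psmc3ip and Psme2b, and without each library (0 to 0). The fits without a library at an unadjusted p under 0.05 had between 0 and 3 genes for genotype and between 0 and 2 for sorted group. The median log2 difference of the measured genes, KO over WT in group 2, was 0.11, and 0.06 with library totals and with deposited RPKM. In group 3 it was 0.01, and -0.04 with these. With a filter at 100 CPM, chosen after seeing the data, it was 0.15 in group 2 and 0.04 in group 3.

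The count of measured genes past the fold was 2 in group 2, KO over WT. It was 1 with DESeq2 size factors, with library totals, with a pseudocount of 2 CPM, at 2-fold and without Psmc3ip and Psme2b, 0 with a filter at 10 CPM and 7 past 0.32 log2. In group 3 it was also 2, and 1 with a pseudocount of 2 CPM, at 2-fold and without Psmc3ip and Psme2b, 0 with a filter at 10 CPM and 9 past 0.32 log2. From group 2 to group 3 it was 1 in KO and 1 in WT, 0 in both with a filter at 10 CPM and without Psmc3ip and Psme2b, and 11 in KO and 5 in WT past 0.32 log2. Past 0.32 log2 the share of all measured genes was not worked out, so nothing is read from those counts. Of all genes with 10 CPM, 15.6% were higher and 17.8% lower in group 2, and 16.5% and 13.8% in group 3. From group 2 to group 3, 16.5% were higher and 12.5% lower in KO, and 13.7% and 15.0% in WT. The 0 with a filter at 10 CPM follows from its construction, since both genes past 1.5-fold had under 10 CPM. The cause of the other moves was not tested.

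Inducible shares from raw counts, with no length correction, were higher, since the inducible genes have the longer implied lengths. For Psmb8 they were 50.0% in KO group 3, 44.3% in WT group 3, 44.7% in KO group 2 and 45.5% in WT group 2. For Psmb9 they were 32.0% in KO group 3, 37.9% in WT group 3, 32.5% in KO group 2 and 31.3% in WT group 2. For Psmb10 they were 58.0% in KO group 3, 55.8% in WT group 3, 52.1% in KO group 2 and 49.2% in WT group 2.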

Other observations

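Processed pseudogenes of the catalytic subunits gave few counts. Psmb5-ps had 0 in KO group 3 and 7 in WT group 3, and 4 in KO group 2 and 3 in WT group 2. Psmb6-ps had 2 in KO group 3 and 2 in WT group 3, and 3 in KO group 2 and 1 in WT group 2. Psmb6-ps2 had 5 counts in KO group 2 and 0 in the other 3 libraries, and Psmb7-ps2 had 1 count in WT group 3 and 0 in the other 3. Proteasome genes together held 1.07% of counts in KO group 3 and 1.06% in WT group 3, and 1.15% in KO group 2 and 1.08% in WT group 2. Neutrophil markers summed to 41.2 CPM in KO group 3 and 0.981 CPM in WT group 3, and to 1.02 CPM in KO group 2 and 1.33 CPM in WT group 2. Within 1 Mb of Psmb9, 3 of 74 measured neighbours were called for genotype (Brd2, H2-K2 and Tapbp), beside 602 of all 12490 measured genes.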
